A study of Mus musculus with 16 samples.

Results

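The transcription factors that drive the differentiation of epidermal keratinocytes were followed across the 16 libraries of a study of hair follicle stem cells (HFSCs) and their progeny. They are 9 genes, Klf4, Grhl1, Grhl3, Ovol1, Zfp750, Prdm1, Trp63, Cebpa and Cebpb, chosen by their symbols out of 22579 gene symbols in the count tables. The choice was made with earlier results of these data known. All cells came from C57BL/6J mice and were grown for 2 weeks as 3D-3C organoids, a culture in which HFSCs and their progenitors maintain each other. They were then sorted on integrin alpha6 and CD34 into alpha6+CD34- cells, called progenitors here, and alpha6+CD34+ cells, called HFSCs. Cultures were left untreated or received N1-acetylspermidine (N1-AcSpd), an acetylated polyamine, for the last 72 h. Each of the 4 groups (untreated progenitors, untreated HFSCs, treated progenitors, treated HFSCs) was measured by RNA-seq and by Ribo-seq, the sequencing of ribosome-protected fragments or footprints, from the same lysates of 2 donor mice, so that every group had n = 2 in each assay. The labels name no transgene or deletion in any group. The study took epidermal cells from mice in telogen, the resting phase of the hair cycle, and the labels give no age for the donors of single libraries.

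The epidermis is renewed from a basal layer of dividing keratinocytes, whose daughters leave the basement membrane, stop dividing and build the cornified barrier. Trp63 encodes p63, the master factor of stratified epithelia, which keeps basal cells in their epidermal state and is also needed to start differentiation. Zfp750 is a known target of p63 and acts with Klf4 and Grhl3 to switch on barrier genes. Grhl1 and Grhl3 belong to the grainyhead family, which controls desmosome and barrier genes, and Ovol1 is a zinc finger repressor that limits the growth of differentiating progenitors. Prdm1 encodes Blimp1, a transcriptional repressor needed in the granular layer for the passage to cornified cells, and Cebpa and Cebpb encode C/EBP factors that accompany the exit from the cell cycle.

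The RNA-seq libraries held 21601141 to 31505435 counts on the transcripts kept, 1 per gene, and the Ribo-seq libraries only 34467 to 267921 footprints. Levels are given as CPM, counts relative to the size of the library after TMM scaling, and test values are from the quasi-likelihood test of edgeR, with p adjusted by Benjamini-Hochberg over all genes tested, 14205 in RNA-seq. The sort was visible in the RNA: Cd34 stood at 67.5 to 89.9 CPM in the 4 HFSC libraries and at 2.35 to 5.36 CPM in the 4 progenitor libraries. The 8 HFSC markers summed to 408 and 468 CPM in untreated progenitors, 1140 and 1370 in untreated HFSCs, 284 and 325 in treated progenitors and 872 and 681 in treated HFSCs, lower after treatment in both cell types. Krt15 (96.8 to 763 CPM) and Sox9 (101 to 284 CPM) were the most abundant of these markers. Krt15, a keratin of bulge stem cells, was lower with N1-AcSpd (log2 fold change -0.99, SE 0.08, adjusted p = 0.00446), and its part in the results of the factors was not tested. None of the other markers passed with N1-AcSpd. Cd34 was estimated at 0.21 (SE 0.23, adjusted p = 0.729) and Sox9 at -0.44 (SE 0.15, adjusted p = 0.206). Lgr5 was at -0.74 (SE 0.80), Dkk3 at -0.17, and Nfatc1, Tcf7l2 and Lhx2 at -0.12 each. The 6 basal keratinocyte markers summed to between 40700 and 48400 CPM in every library. Markers of other cell types were near 0, with sums of at most 2.12 CPM for 6 melanocyte genes, 13.6 for 6 fibroblast genes, 2.43 for 5 endothelial genes, 3.67 for 6 immune genes and 0.716 for 4 Merkel cell genes. Of the 6 sebocyte genes, 4 stayed under 1 CPM, and the sum was carried by Fabp5 and Mgst1, which keratinocytes express as well. The 7 suprabasal keratinocyte markers summed to between 220 and 877 CPM in every library. Sbsn (132 to 464 CPM) and Krtdap (48.7 to 198 CPM) had the highest levels among them, and Flg stayed at 0 to 0.588 CPM. In bulk RNA, fewer cells of a type and less RNA per cell cannot be told apart.

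The treated HFSC libraries stood apart in how the mice differed. The gene-wise difference between the mice correlated at 0.39 to 0.71 among the other 3 RNA-seq groups, and at -0.67 to -0.39 between each of those groups and the treated HFSCs. Of the 9 transcription factors, 8 were lower in mouse 2 than in mouse 1 in untreated progenitors, 7 in untreated HFSCs, 5 in treated progenitors and 1, Cebpa, in treated HFSCs. The median log2 ratio of mouse 2 to mouse 1 over the 9 factors was -0.42, -0.20, -0.04 and 0.27 in the same order. Some of the steps counted were small, such as 0.01 for Klf4 and for Trp63 in treated HFSCs. The share of all genes lower in mouse 2 was not counted. Whether the mouse numbers of the treated HFSC libraries are exchanged cannot be told from the labels, which are used as given. Values that pair these libraries with the others by mouse, and fits that block on the mouse, depend on those numbers.

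On the scale of CPM per kilobase of exon, which allows levels to be compared between genes, Cebpb was the most abundant of the 9 transcripts, at a mean of 165 over the 8 RNA-seq libraries (range 142 to 178). Trp63 followed at 87.5 (81.1 to 95.6) and Klf4 at 77.2 (65.9 to 101), and the ranges of this pair overlapped. A wide gap separated these genes from Cebpa at 15.5 (12 to 17.6), Ovol1 at 10.9 (7.42 to 17.4), Grhl1 at 8.43 (4.88 to 16.9), Zfp750 at 6.87 (2.18 to 16.8) and Grhl3 at 6.77 (1.93 to 17.0), none of which differed from its neighbours in this order beyond the spread over libraries. Prdm1 was the lowest at 1.10 (0.53 to 1.71), under the lowest library of every other gene. The order is across genes with all groups together, so that the spread holds the differences between groups as well.

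Grhl3 and Zfp750 had the widest range of the 9 genes and were the only ones to pass the adjusted test in any RNA-seq comparison. Grhl3 (ENSMUSG00000037188, kept transcript at chr4:135541888-135573630 on the minus strand, GRCm38) stood at 17.8 and 13.2 CPM in untreated progenitors of mouse 1 and mouse 2, and at 8.28 and 5.37 CPM in untreated HFSCs. With N1-AcSpd it stood at 47.5 and 30.8 CPM in progenitors and at 9.21 and 18.9 CPM in HFSCs. HFSCs were below progenitors in both mice, treated or not, and the treated progenitors were above every other library. Between the highest and the lowest library the level differed 8.83-fold.

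Zfp750 (chr11:121510978-121519333, minus strand) followed the same course, at 20.4 and 14.7 CPM in untreated progenitors and 8.41 and 7.04 CPM in untreated HFSCs. In treated progenitors it reached 54.2 and 35.6 CPM, and in treated HFSCs 11.9 and 25.4 CPM. As with Grhl3, no HFSC library of a treatment overlapped the progenitor libraries of that treatment. Nor did any treated library of a cell type overlap its untreated libraries. Each of these comparisons separated other factors as well. Of the 9 factors, 5 were separated between untreated cell types and 7 between treated ones. By treatment, 7 were separated in progenitors and 4 in HFSCs. How many of all genes were separated in this way was not counted, so these counts do not set the factors apart from other genes. The lowest and the highest library of Zfp750 were 7.70-fold apart.

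Klf4, Grhl1, Ovol1 and Prdm1 varied less. Klf4 (chr4:55527143-55532466, minus strand) lay at 233 and 213 CPM in untreated progenitors, 215 and 200 in untreated HFSCs, 277 and 306 in treated progenitors and 213 and 214 in treated HFSCs. Only the treated progenitors stood apart, and the ranges of the other 3 groups overlapped. Grhl1 (chr12:24572283-24617388, plus strand) lay at 34.5 and 22.6 CPM in untreated progenitors and 19.8 and 17.2 in untreated HFSCs, and at 58.7 and 32.0 in treated progenitors against 16.9 and 32.3 in treated HFSCs. Its treated groups overlapped, because mouse 2 had the same level in both.

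Ovol1 (chr19:5549136-5560646, minus strand) lay at 36.4 and 27.3 CPM in untreated progenitors, 27.8 and 22.4 in untreated HFSCs, 51.8 and 38.6 in treated progenitors and 22.0 and 33.5 in treated HFSCs. The untreated groups overlapped and the treated groups did not. Prdm1 (chr10:44437177-44458748, minus strand) lay at 7.26 and 4.86 CPM in untreated progenitors, 6.69 and 2.80 in untreated HFSCs, 8.68 and 9.03 in treated progenitors and 3.29 and 3.97 in treated HFSCs. Its untreated groups overlapped, whereas the treated HFSCs lay well under the treated progenitors in both mice.

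Trp63, Cebpa and Cebpb were nearly flat. Trp63 (chr16:25801916-25892102, plus strand) lay at 397 and 381 CPM in untreated progenitors, 408 and 414 in untreated HFSCs, 404 and 393 in treated progenitors and 446 and 449 in treated HFSCs, a 1.18-fold range over all 8 libraries. The small steps were ordered, with HFSCs above progenitors in both mice and both treatments. With the mice as labelled, the steps of Cebpb had the same order. Neither gene passed the edgeR test between cell types averaged over both treatments (adjusted p = 0.363 for Trp63 and 0.359 for Cebpb). Cebpb (chr2:167688915-167690418, plus strand) lay at 229 and 214 CPM in untreated progenitors, 263 and 259 in untreated HFSCs, 238 and 263 in treated progenitors and 248 and 268 in treated HFSCs. Cebpa (chr7:35119303-35121928, plus strand) lay at 36.7 and 37.9 CPM in untreated progenitors, 31.4 and 41.9 in untreated HFSCs, 45.0 and 46.2 in treated progenitors and 43.7 and 42.5 in treated HFSCs. The 4 treated libraries of Cebpa were all above the 4 untreated ones, by a narrow margin (lowest treated 42.5 CPM, highest untreated 41.9 CPM). In the edgeR test averaged over both cell types Cebpa did not pass with N1-AcSpd (adjusted p = 0.238). The share of all genes separated in this way was not counted.

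**Figure D1:**
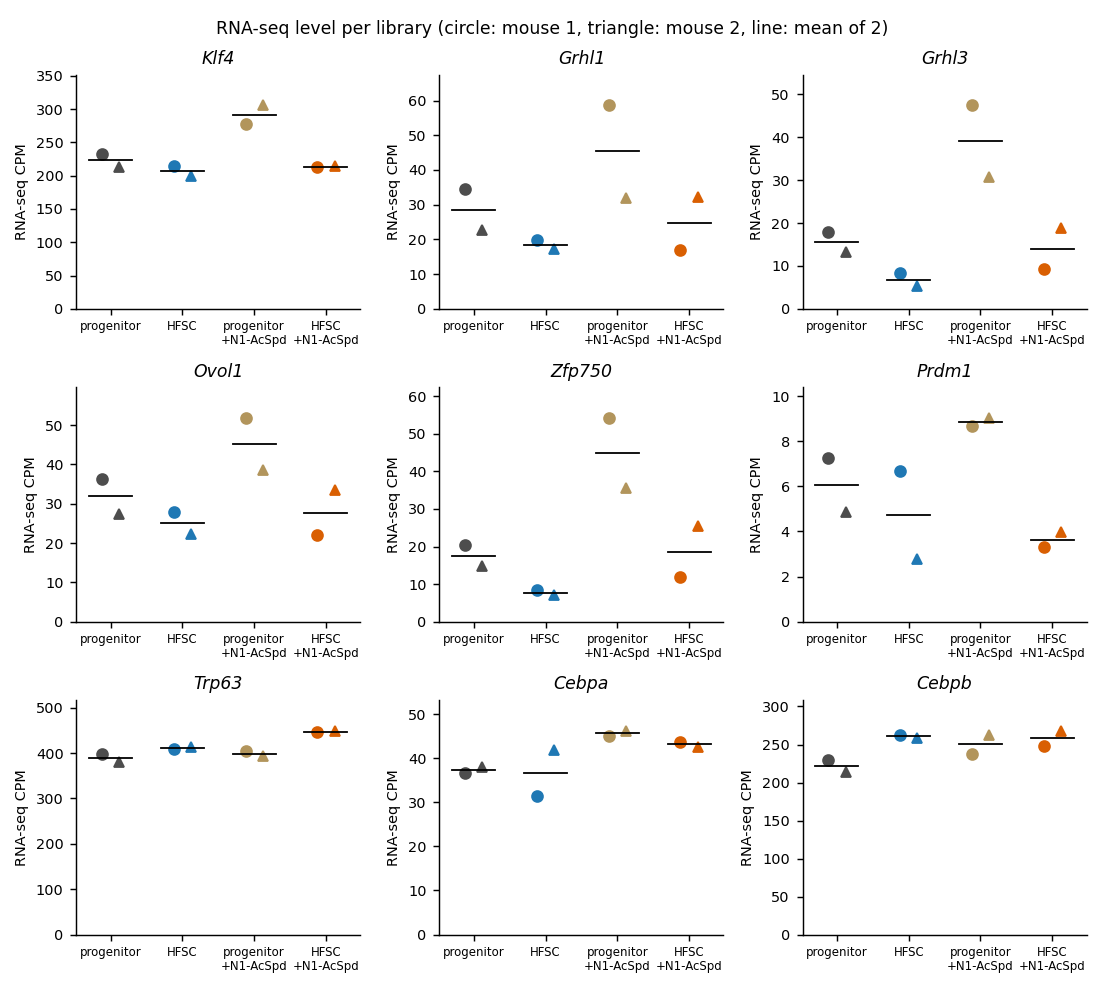
RNA-seq level in CPM (y axis, from 0, a separate scale for each gene) of the 9 transcription factors in the 4 groups, with a circle for mouse 1, a triangle for mouse 2 and a line for the mean of both. Grhl3 and Zfp750 range from 5.37 to 47.5 and from 7.04 to 54.2 CPM with their peak in treated progenitors, while Trp63 stays between 381 and 449 CPM.

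The first question was whether HFSCs and progenitors differ in these factors. Averaged over both treatments, Grhl3 was 2.51-fold lower in HFSCs (log2 fold change -1.33, SE 0.26, adjusted p = 0.0273) and Zfp750 2.33-fold lower (-1.22, SE 0.25, adjusted p = 0.0316). The other 7 genes did not pass. Among them the estimates were -0.28 (SE 0.07, adjusted p = 0.0765) for Klf4, -0.52 (SE 0.17, adjusted p = 0.136) for Ovol1, -0.75 (SE 0.25, adjusted p = 0.153) for Grhl1 and -0.81 (SE 0.26, adjusted p = 0.142) for Prdm1. Over all genes tested, 3.91% passed in this comparison and 1.8% passed as lower in HFSCs, against 2 of the 9 factors, both lower. At an unadjusted p under 0.05 stood 6 of the 9 factors and 18.1% of all genes. The median log2 fold change was -0.52 over the 9 genes and -0.006 over all genes. Because the factors were chosen with earlier results of these data known, these counts and those with N1-AcSpd below are no independent evidence.

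Both calls were close to the threshold. With the mouse as a replicate block they fell to the other side, at adjusted p = 0.0527 for Grhl3 and 0.0636 for Zfp750 with log2 fold changes of -1.31 and -1.21, and DESeq2 called 6 of the 9 factors as lower. For Grhl3 the adjusted p was 0.0955 without mouse 1 of the untreated progenitors, 0.0991 without mouse 2 of the untreated HFSCs, 0.0793 without mouse 1 of the treated progenitors, 0.0545 without mouse 1 of the treated HFSCs and 0.016 without mouse 2 of the treated HFSCs. For Zfp750 it was 0.113 without mouse 1 of the untreated progenitors, 0.065 and 0.118 without mouse 1 or mouse 2 of the untreated HFSCs, 0.0922 without mouse 1 of the treated progenitors, and 0.0491 and 0.0115 without mouse 1 or mouse 2 of the treated HFSCs. Prdm1 passed, at adjusted p = 0.0272, when mouse 1 of the untreated HFSCs was left out. Without a minimum count the adjusted p was 0.00317 for Grhl3 and 0.00403 for Zfp750. The fold changes of Grhl3 and Zfp750 stayed between -1.62 and -1.0 in all of these fits.

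For Trp63, Cebpb and Cebpa, none of which passed, the estimates were narrow. The interval of 2 SE around the log2 fold change between HFSCs and progenitors ran from -0.01 to 0.25 for Trp63, from 0.00 to 0.28 for Cebpb and from -0.25 to 0.14 for Cebpa. A change of the size seen in Grhl3 lay outside each of these intervals.

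Taken within a treatment, none of the 9 factors passed. Between untreated cells the edgeR test called 0.148% of all genes and 0 factors, with 3 at an unadjusted p under 0.05, and DESeq2 called 2, Grhl3 and Zfp750. Their log2 fold changes were -1.18 for both (SE 0.37 and 0.36, adjusted p = 0.303 and 0.278). Between treated cells it called 0.746% of all genes and 0 factors, with 6 at an unadjusted p under 0.05, and DESeq2 called 4. Here the log2 fold changes were -1.47 for Grhl3 (SE 0.36, adjusted p = 0.136), -1.26 for Zfp750 (SE 0.34, adjusted p = 0.183), -1.28 for Prdm1 (SE 0.38, adjusted p = 0.219) and -0.45 for Klf4 (SE 0.10, adjusted p = 0.114). Without mouse 1 of the treated HFSCs the treated contrast was -1.07 for Grhl3 and -0.84 for Zfp750, and without mouse 2 it was -2.07 and -1.90. Between untreated cells Klf4 was at -0.11 (SE 0.10, adjusted p = 0.829).

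The second question was what N1-AcSpd does to the factors. Averaged over both cell types, Zfp750 was 2.49-fold higher after treatment (log2 fold change 1.32, SE 0.25, adjusted p = 0.0418), and it was the only factor to pass. Grhl3 was estimated at 1.19 (SE 0.26, adjusted p = 0.067), Grhl1 at 0.54 (SE 0.25, adjusted p = 0.347), Ovol1 at 0.33 (SE 0.17, adjusted p = 0.395), Cebpa at 0.26 (SE 0.10, adjusted p = 0.238) and Klf4 at 0.22 (SE 0.07, adjusted p = 0.197). Over all genes, 1.64% passed and 1.2% passed as higher, and 15.6% had an unadjusted p under 0.05, against 4 of the 9 factors. All 9 estimates were positive, with a median of 0.26 against -0.015 over all genes, and those of Trp63, Cebpb and Prdm1 were 0.08 each with 2 SE intervals of -0.05 to 0.21, -0.06 to 0.22 and -0.45 to 0.60.

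The call of Zfp750 was as close to the threshold as those between cell types. It stood at adjusted p = 0.0766 with the replicate block and at 0.0607 when counts were summed over the transcripts of a gene. Without 1 library it was 0.0962 or 0.119 for mouse 1 or mouse 2 of the untreated progenitors, 0.105 or 0.129 for those of the untreated HFSCs, 0.107 or 0.0442 for those of the treated progenitors and 0.0184 or 0.084 for those of the treated HFSCs. Grhl3 passed without mouse 1 of the treated HFSCs, at adjusted p = 0.0327, and reached 0.164 without mouse 2. DESeq2 called both Zfp750 and Grhl3 (adjusted p = 1.05e-06 and 5.12e-05), as did edgeR without a minimum count (0.00486 and 0.0115). The estimate for Zfp750 stayed between 1.00 and 1.53.

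Within progenitors alone N1-AcSpd changed 0.239% of all genes and 0 factors in edgeR, with 3 factors at an unadjusted p under 0.05 and 2 called by DESeq2, Grhl3 and Zfp750. Their estimates were 1.33 (SE 0.36, adjusted p = 0.263) and 1.36 (SE 0.34, adjusted p = 0.235), and that of Klf4 was 0.39 (SE 0.10, adjusted p = 0.259). In HFSCs 0% of all genes passed in edgeR, where 1100 genes had an unadjusted p under 0.05 and DESeq2 called 124. None of the factors passed, 2 had an unadjusted p under 0.05 and DESeq2 called 1, Zfp750. Zfp750 was estimated at 1.27 (SE 0.35, adjusted p = 0.383) and Grhl3 at 1.04 (SE 0.37, adjusted p = 0.535), while Klf4 was at 0.04 (SE 0.10, adjusted p = 0.959). Without mouse 1 of the treated HFSCs these estimates were 1.69 for Zfp750 and 1.44 for Grhl3, and without mouse 2 they were 0.63 and 0.44. The difference between the 2 responses, tested as the interaction of cell type and treatment, passed for 0% of all genes in edgeR (118 at an unadjusted p under 0.05) and for 0 genes in DESeq2 (62 at an unadjusted p under 0.05). The factor nearest to it was Klf4 (-0.34, SE 0.15, unadjusted p = 0.043, adjusted p = 1.0).

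**Figure D2:**
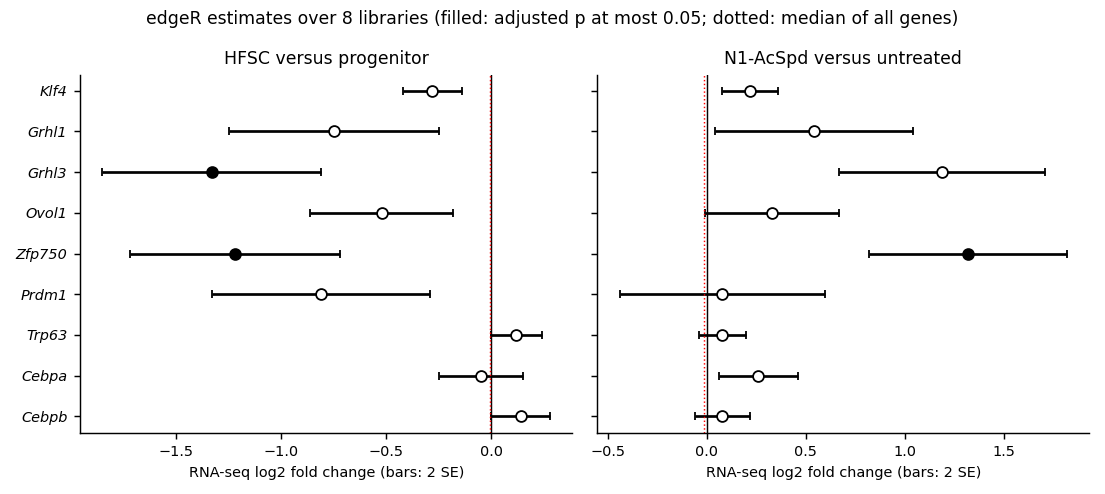
RNA-seq log2 fold change (x axis) of each factor between cell types (left, mean of both treatments) and with N1-AcSpd (right, mean of both cell types), with bars of 2 SE; filled points have an adjusted p of at most 0.05 and the dotted line is the median of all genes. Grhl3 at -1.33 and Zfp750 at -1.22 lie farthest from 0 on the left, and the same genes at 1.19 and 1.32 on the right.

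With the mice as labelled, the contrast between the cell types was alike in both mice for Grhl3 and Zfp750 without treatment and uneven with it. The log2 difference between untreated HFSCs and progenitors was -1.11 in mouse 1 and -1.30 in mouse 2 for Grhl3, and -1.28 and -1.06 for Zfp750. With N1-AcSpd it was -2.37 and -0.71 for Grhl3, and -2.19 and -0.49 for Zfp750. Grhl1 went from -1.80 in mouse 1 to 0.02 in mouse 2 and Ovol1 from -1.23 to -0.21, so that the treated contrast in these 4 genes was larger in the pair of libraries labelled mouse 1. Prdm1, at -1.40 and -1.19, and Klf4, at -0.38 and -0.51, did not share this split.

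The response of the same 4 genes to N1-AcSpd differed more between the mice as labelled in HFSCs than in progenitors. In progenitors the log2 difference between treated and untreated cells was 1.41 and 1.22 for Grhl3, 1.41 and 1.28 for Zfp750, 0.77 and 0.50 for Grhl1, 0.51 and 0.50 for Ovol1 and 0.26 and 0.89 for Prdm1. In HFSCs it was 0.15 and 1.81 for Grhl3, 0.50 and 1.85 for Zfp750, -0.23 and 0.91 for Grhl1, -0.34 and 0.58 for Ovol1 and -1.02 and 0.50 for Prdm1. The unevenness rests on the mouse numbers of the treated HFSC libraries. The untreated and treated groups of a cell type, and the cell types of a treatment, share libraries between these comparisons, so the values are not independent of each other.

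**Figure D3:**
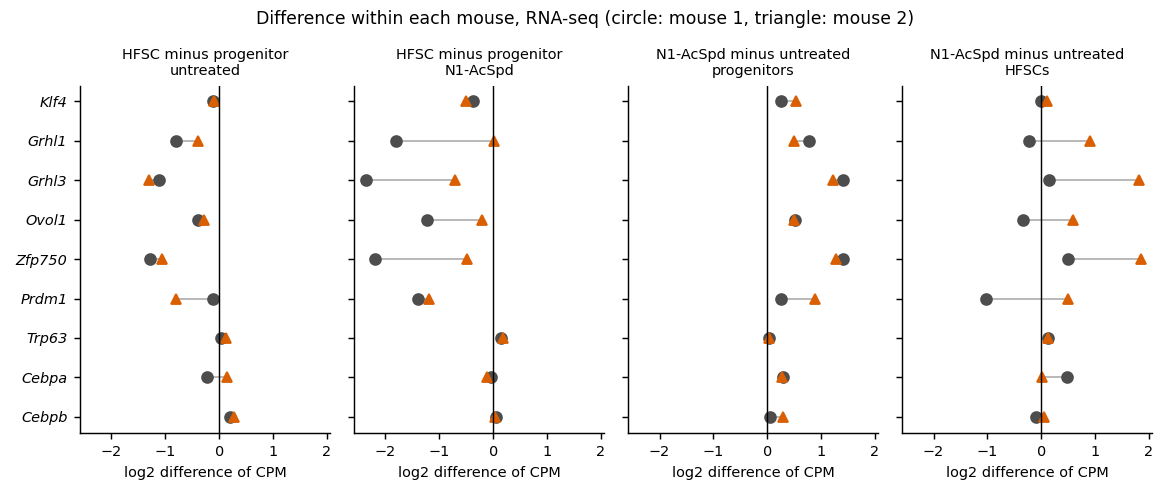
Log2 difference of RNA-seq CPM within each mouse (x axis, the same scale in all panels; circle mouse 1, triangle mouse 2) for the 4 pairs of groups. The mice lie closer together in untreated cells and in progenitors than they do for Grhl1, Grhl3, Ovol1 and Zfp750 in both comparisons that use treated HFSCs, such as 0.15 against 1.81 for Grhl3.

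Most genes of terminal differentiation were lower in HFSCs, and many were higher with N1-AcSpd. A list of 33 genes of the cornified envelope, desmosomes, lipid barrier and their proteases had 31 members with enough counts, and 24 of them were lower in HFSCs, 0 higher and 7 did not pass. The median log2 fold change of the list was -1.63. Across all genes 1.8% were lower. Among the called genes with the smallest p were Alox12b, a lipoxygenase of the lipid barrier (-1.97, SE 0.18, adjusted p = 0.00178), Klk7, a protease of desquamation (-2.10, SE 0.21, adjusted p = 0.00237), Ivl, which encodes the envelope protein involucrin (-0.71, SE 0.07, adjusted p = 0.00245), and Cdsn, a component of corneodesmosomes (-1.94, SE 0.21, adjusted p = 0.00343). Next came Dsc1 (-1.77), Sprr1b (-0.99), Klk5 (-2.20) and Abca12 (-0.76). With N1-AcSpd 17 of the 31 were higher, 0 lower and 14 did not pass, with a median of 1.38. Ivl rose by 1.16 (SE 0.07, adjusted p = 0.00131) and Alox12b by 1.82 (SE 0.18, adjusted p = 0.00749) on the log2 scale. Across all genes 1.2% were higher. The count of 17 fell to 14 with the replicate block, to 9 without mouse 1 of the untreated progenitors and to 11 without mouse 1 of the untreated HFSCs or mouse 2 of the untreated progenitors. The list was drawn up by hand with earlier results of these data known, so that its counts are no independent evidence.

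The summed level of the same 31 genes was 968 and 997 CPM in untreated progenitors, 501 and 610 in untreated HFSCs, 2260 and 1970 in treated progenitors and 787 and 929 in treated HFSCs. The 7 suprabasal markers, all of them members of this list, summed to 420 and 432 CPM, 220 and 303, 877 and 650, and 293 and 383 CPM in the same order. These sums had their lowest group mean in untreated HFSCs and their highest in treated progenitors. So did Grhl3, Zfp750, Klf4, Grhl1, Ovol1 and Cebpa, but not Prdm1, Trp63 or Cebpb. The part of suprabasal cells in the results of the factors was not tested.

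Of 34 other factors with a role in skin, 33 were tested, and 4 were higher in HFSCs, 1 lower and 28 did not pass, against 3.91% of all genes called, with a median log2 fold change of -0.15. Those higher were Nfib (0.53, SE 0.10, adjusted p = 0.0238) and Sox9 (0.67, SE 0.15, adjusted p = 0.0472), which act in the bulge stem cells, Casz1 (0.37, SE 0.07, adjusted p = 0.0266) and Barx2 (0.61, SE 0.12, adjusted p = 0.0303). Klf3, a repressor of the Klf family, was lower (-0.33, SE 0.08, adjusted p = 0.0486). With N1-AcSpd the median of the list was -0.03. The 20 basal genes linked to p63, all tested, had medians of -0.15 between the cell types and -0.07 with N1-AcSpd. Among them the growth factor receptor gene Fgfr2 was lower with N1-AcSpd (-0.42, SE 0.07, adjusted p = 0.0221, named after its value was seen). The last 2 lists share 3 genes.

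**Figure D4:**
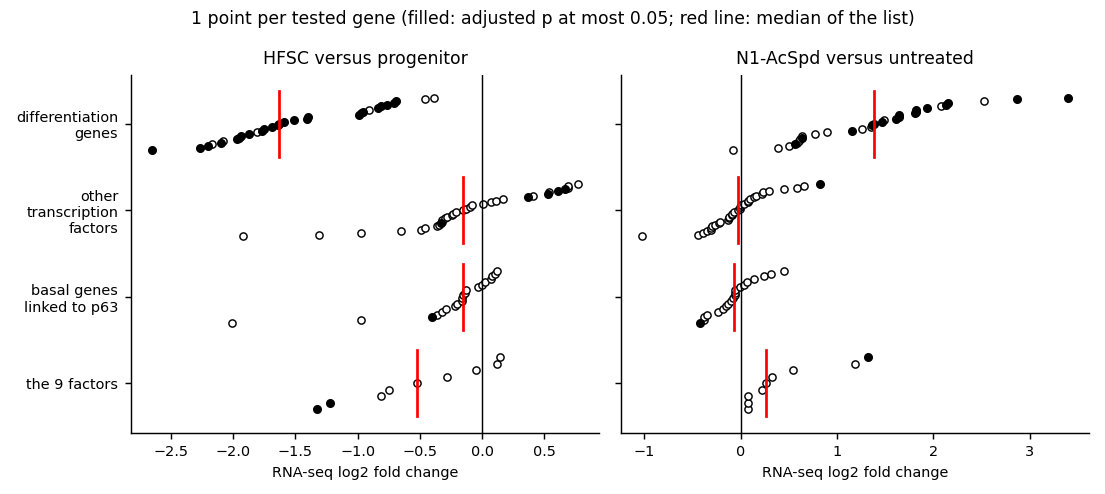
RNA-seq log2 fold change (x axis) of every tested gene of 3 lists and of the 9 factors, between cell types (left) and with N1-AcSpd (right); filled points have an adjusted p of at most 0.05 and the red line is the median of the list. The differentiation genes lie at a median of -1.63 and 1.38, the other transcription factors and the basal genes near 0.

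Some genes had profiles over the 8 libraries close to those of single factors. Over the 10861 genes whose mean count reached 50, the profile of Grhl3 was most like those of Tgm1, which encodes the transglutaminase that cross-links the cornified envelope (Pearson's r = 0.994 of log2 CPM), and Fabp5, an epidermal fatty acid binding protein (r = 0.993). Zfp750 was most like Grhl3 and Tgm1 (r = 0.991 each), Grhl1 like Aox4 and Slc35b1 (r = 0.993 each) and Ovol1 like Bod1 (r = 0.991) and Eif2b5 (r = 0.986). The 2 nearest profiles were Zfp597 and Mapkapk5 for Klf4 (r = 0.975 and 0.961), Kpna6 and Coro2a for Prdm1 (0.977 and 0.965), Mta2 and Ydjc for Cebpa (0.979 and 0.963), Pla2g7 and Hirip3 for Trp63 (0.956 and 0.952) and Cnpy3 and Ccdc163 for Cebpb (0.915 and 0.909). These values describe 8 libraries of 4 groups and 2 mice, which share the group and mouse differences given above.

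Trp63 has 2 known starts, an upstream one that gives the TAp63 forms and an internal one that gives the deltaNp63 forms of basal keratinocytes. The kept transcript begins at the internal start and has 186 bases of its own at chr16:25801916-25802101, while a transcript from the upstream start has 849 bases of its own within chr16:25683765-25764296 and shares the remaining 4517. In each RNA-seq library the count of the internal-start transcript exceeded that of the upstream-start transcript by 50 to 71 reads, out of 8145 to 14041. If reads on shared bases are counted for both transcripts, this excess is the number of reads found on the bases of the first alone minus those found on the bases of the other alone, and the 2 parts cannot be told apart from totals per transcript. The excess was 53 and 52 reads in untreated progenitors, 71 and 67 in untreated HFSCs, 59 and 50 in treated progenitors and 58 and 70 in treated HFSCs, positive in all 8 libraries, and in Ribo-seq it was 0 to 2 footprints.

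Ribosome footprints on the 9 transcripts were few, 800 in all 8 libraries. Trp63 held 488 of them, Cebpb 143, Klf4 50 and Ovol1 41, and Grhl1 and Grhl3 21 each, Zfp750 18, Cebpa 13 and Prdm1 5. Prdm1 was under the minimum mean of 1 footprint and was not tested, so that 8 of the 9 factors were tested among 8431 genes. A library without a footprint still allows up to 3 counts, which is 12.5 CPM in the deepest Ribo-seq library and 73.5 CPM in the shallowest. Per kilobase of coding sequence Trp63 (345 CPM) and Cebpb (203 CPM) were again the highest, ahead of Ovol1 (61.0) and Klf4 (52.6).

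Only Trp63 and Cebpb reached a mean of 10 footprints per library. Trp63 held 20 and 119 footprints in untreated progenitors (490 and 497 CPM), 34 and 95 in untreated HFSCs (622 and 745 CPM), 45 and 39 in treated progenitors (559 and 614 CPM) and 95 and 41 in treated HFSCs (669 and 658 CPM). The 4 HFSC libraries were above the 4 progenitor libraries, as in RNA-seq, but the estimate of 0.32 (SE 0.30, adjusted p = 1.0) was not distinguishable from 0 at this depth. Cebpb held 13 and 45 footprints in untreated progenitors, 11 and 27 in untreated HFSCs, 6 and 6 in treated progenitors and 23 and 12 in treated HFSCs. Its CPM were lowest in treated progenitors, at 74.5 and 94.5, against 162 to 318 in the other 6 libraries.

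Klf4 held 8 and 11 footprints in untreated progenitors, 7 and 4 in untreated HFSCs, 6 and 4 in treated progenitors and 10 and 0 in treated HFSCs. Ovol1 held 2 and 10, 1 and 2, 4 and 5, and 15 and 2 in the same order, and Zfp750 1 and 6, 2 and 1, 1 and 1, and 3 and 3. Grhl3 held 0 and 7 in untreated progenitors, 0 and 0 in untreated HFSCs, 2 and 6 in treated progenitors and 6 and 0 in treated HFSCs. At this depth no direction was read for Zfp750 or Grhl3, and no fold change is given for Grhl3 or Prdm1, which have a group without any footprint. Between cell types the log2 estimates were -0.57 (SE 0.64) for Klf4, -0.55 (SE 0.75) for Ovol1 and 0.43 (SE 0.43) for Cebpb, and with N1-AcSpd -0.53 (SE 0.64), 1.34 (SE 0.75) and -0.83 (SE 0.43), each within 2 SE of 0. Without mouse 1 of the treated HFSCs they were -3.10 and -3.14 for Klf4, which then rests on a library with 0 footprints and is no fold change, and -1.12 and 0.71 for Ovol1. Leaving out any other library gave -1.11 to 0.00 and -1.06 to 0.01 for Klf4.

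In the edgeR test of the footprints 0.154% of all genes passed between cell types and 0.083% with N1-AcSpd, each averaged over the other factor, and 0 of the 8 tested factors passed in either. At an unadjusted p under 0.05 the share of all genes was 4.14% and 4.84%, and 1 factor, Grhl3, was below that value in both (unadjusted p = 0.0402 and 0.0234, adjusted p = 1.0 and 0.942). DESeq2 called 0 factors in both comparisons, with 0 at an unadjusted p under 0.05.

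**Figure D5:**
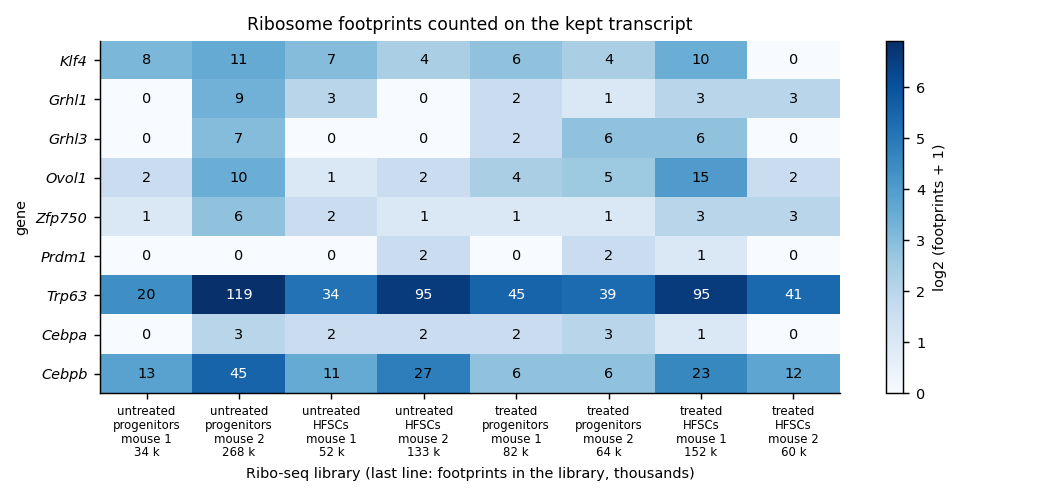
Number of ribosome footprints (printed in each cell, shade on a log2 scale) on the kept transcript of the 9 factors (rows) in the 8 Ribo-seq libraries (columns, with the size of each library). Trp63 ranges from 20 to 119 footprints and Cebpb from 6 to 45, and the other 7 genes hold at most 15 in any library.

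Translational efficiency, the footprints of a gene relative to its RNA, was compared in 4 pairs of groups by the interaction of assay and group, at the unadjusted p under 0.05 that the study used. This threshold was passed by 5.24% of all genes between untreated cell types, 6.24% between treated ones, 6.1% with N1-AcSpd in progenitors and 6.87% with N1-AcSpd in HFSCs. Of the 8 factors tested, 0, 1, 1 and 1 passed it, and none passed an adjusted threshold. The genes were Cebpa between treated cell types (unadjusted p = 0.0483, adjusted p = 0.757), which rests on 2 and 3 footprints in progenitors against 1 and 0 in HFSCs, Cebpb with N1-AcSpd in progenitors and Ovol1 with N1-AcSpd in HFSCs. Cebpb was lower by 1.55 on the log2 scale (-1.55, SE 0.51, unadjusted p = 0.00813, adjusted p = 0.792), and its RNA changed by 0.18 (SE 0.10, adjusted p = 0.696) in the same cells. The Cebpb estimate rests on 13 and 45 footprints in untreated progenitors against 6 and 6 in treated ones. Without 1 library it ranged from -2.26 to -1.32. Ovol1 was at 2.17 (SE 0.97, unadjusted p = 0.0368, adjusted p = 0.712) with 1 and 2 against 15 and 2 footprints, and at 0.82 without the library that holds 15. The estimates for Klf4 were -0.12, -0.09, -0.42 and -0.41, with SE of 0.74 to 0.83. For Trp63 the 4 estimates were 0.39, 0.01, 0.19 and -0.19, with SE of 0.29 to 0.33 and adjusted p of 0.936 to 1.0.

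The sequences before the starts of the factors were searched for short motifs of the same factor families. RefSeq promoters of GRCm38.p6 were matched by symbol for 6 of the 9 genes, with 7 starts, and Ovol1, Zfp750 and Trp63 were not matched. In the 250 bases before the start, on both strands, the Klf motif GGGNGTGG was found in 3 of the 7 promoters, those of Grhl3, Prdm1 and Cebpb, and in 15.9% of 32851 promoters. The grainyhead motif AACCNGTT (1.79% of all promoters), the C/EBP motifs TTGCNNAA (9.56%) and TTNCGCAA (0.67%) and the Ovol motif CCGTTA (2.18%) were in none of the 7. All 3 matches read on the strand opposite to the gene, so that the reverse complement of the motif appears in the gene's direction. The promoter of Grhl3, the factor with the widest range, is shown whole and the other matches with 15 bases on each side, with the motif in capitals, 5′ to 3′ on the gene's strand.
Grhl3 (chr4:135573633-135573882, minus strand): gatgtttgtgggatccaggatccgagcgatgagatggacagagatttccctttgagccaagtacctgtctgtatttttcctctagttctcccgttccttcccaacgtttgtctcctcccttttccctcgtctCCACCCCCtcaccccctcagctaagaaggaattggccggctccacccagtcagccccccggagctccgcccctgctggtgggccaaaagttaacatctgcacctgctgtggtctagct
Prdm1 (chr10:44458804-44458841, minus strand): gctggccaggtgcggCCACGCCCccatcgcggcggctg
Cebpb (chr2:167688805-167688842, plus strand): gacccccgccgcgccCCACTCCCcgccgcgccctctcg
The match lies 118 to 111 bases before the start in Grhl3, 78 to 71 in Prdm1 and 95 to 88 in Cebpb. Of these 3 genes Grhl3 was called between cell types and Cebpb was nearly flat in RNA. G and C made up 56.0% of the 250 bases in Grhl3, 59.2% in Prdm1 and 81.6% in Cebpb, against a median of 52.4% over all promoters. A match of this kind describes the letters only.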

How the data were processed

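Both assays were run on each lysate of sorted cells. According to the study's methods and the submitters' processing notes, the authors used flexbar for trimming and Bowtie 1.2.3 to discard reads from rRNA or tRNA, aligned the rest with STAR 2.7.3a to GRCm38.p5 and its transcriptome, named featureCounts, and deposited unscaled counts for 64026 transcripts. The treatment of reads shared between transcripts is not given in the sources used here, so counts of overlapping transcripts are not independent. The deposited fold change, p-value and FPKM columns of the authors' comparisons were not used.

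For each gene the transcript with the most Ribo-seq counts was kept (22579 symbols). Genes whose mean count reached 1 entered edgeR 4.0.16 (R 4.3.3, TMM factors, quasi-likelihood test, 4 groups in 1 fit, Benjamini-Hochberg threshold 0.05), tested on simulated data first. DESeq2 1.42.0 was an alternative. Others were RLE factors, no minimum or a minimum mean of 10, the replicate block, only the libraries compared, other transcript choices and each library left out. Translational efficiency was tested as the interaction of assay and group. Intervals are 2 SE. Replicate 1 and replicate 2 are the mice named in the labels, so the numbers pair the samples as labelled. The difference between the mice correlated at 0.39 to 0.71 among 3 RNA-seq groups but at -0.67 to -0.39 with the treated HFSCs, whose numbers may be exchanged. With 2 mice, p-values measure the spread between these libraries. The floor of 3 counts covers counting error only. All 9 factors were named in every library, of each list at most 8 called genes by smallest p between cell types, and for each factor the 2 most alike genes. The members and lists were chosen with earlier results of these data known. Motifs were searched in the 250 bases before the start only. The planned bases after the start were left out. Results for some genes of the lists are not reported here.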

Additional observations from a re-analysis of the deposited data

How the results depend on the processing

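Counts of calls depended on the processing more than fold changes did. Genes called in RNA-seq are given in the order untreated cell types (21), treated cell types (106), mean of both (556), N1-AcSpd in progenitors (34), in HFSCs (0) and mean of both (233), with the factors called in the same order (0, 0, 2, 0, 0 and 1). DESeq2 called 268, 380, 965, 178, 124 and 581 genes and 2, 4, 6, 2, 1 and 2 factors. Without a minimum count 168, 256, 873, 107, 38 and 419 genes were called, and 1 factor between treated cell types and 2 with N1-AcSpd on average. With the replicate block, which pairs libraries of a mouse, 3 and 44 genes were called between untreated and treated cell types, 7 with N1-AcSpd in progenitors and 135 on average, and 0 factors in either mean. With the numbers of the treated HFSC libraries exchanged in that block, an alternative chosen after seeing the data, 751, 903, 1948, 446, 269 and 1260 genes and 2, 6, 6, 3, 2 and 4 factors were called, and 26 of the differentiation genes with N1-AcSpd. With only the libraries compared, 10, 27 and 5 genes were called between untreated cell types, between treated cell types and with N1-AcSpd in HFSCs. Summed over transcripts, 70 were called between treated cell types, 1 with N1-AcSpd in progenitors, and 147 genes and 0 factors with N1-AcSpd on average. N1-AcSpd in progenitors gave 20 with a minimum mean of 10 and 15 without either treated HFSC library, also chosen after seeing the data. Without 1 library the genes ranged from 1 to 21, 2 to 89, 190 to 457, 0 to 21, 0 to 4 and 42 to 137, the factors from 0 to 2 in both means, and the differentiation genes from 16 to 23 and from 9 to 18.

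Footprint calls between cell types (13 genes) were 5 with DESeq2, 8 with a minimum mean of 10, 1 summed over transcripts and 2 to 23 without 1 library. With N1-AcSpd (7 genes) they were 12 with RLE factors, 0 with DESeq2, 3 without a minimum, 2 with a minimum mean of 10, 4 with the replicate block, 0 summed over transcripts, 4 with the transcript with most RNA-seq counts and 2 to 19 without 1 library.

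For translational efficiency (459, 500, 520 and 576 genes between untreated and treated cell types and with N1-AcSpd in progenitors and HFSCs) 0 genes passed an adjusted threshold, where a minimum mean of 10 left 86, 89, 124 and 112. Summed over transcripts the cell types gave 734 and 771. Without 1 library the ranges were 312 to 741, 346 to 737, 331 to 797 and 396 to 776, with 0 to 1, 0 to 1, 0 to 2 and 0 to 1 factors. The factor between treated cell types was lost (0) with adjustment, DESeq2, no minimum, a minimum mean of 10 and the replicate block, that in progenitors with adjustment, and that in HFSCs with adjustment, a minimum mean of 10, the replicate block and the sum over transcripts, while DESeq2 called 1 between untreated cell types.

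Small values changed sign. Trp63 efficiency between treated cell types was -0.05 with RLE factors, -0.08 with a minimum mean of 10 and -0.09 to 0.08 without 1 library. Without 1 library RNA values ranged for Cebpa from -0.25 to 0.17 (untreated cell types) and -0.17 to 0.05 (mean), for Cebpb from -0.06 to 0.02 (N1-AcSpd in HFSCs) and -0.03 to 0.12 (treated cell types), for Prdm1 from -0.88 to 0.40, -0.17 to 0.48 (N1-AcSpd in HFSCs and mean) and -1.11 to 0.14 (untreated cell types), and with N1-AcSpd in HFSCs for Klf4 from -0.01 to 0.12, Grhl1 from -0.12 to 0.78 and Ovol1 from -0.18 to 0.39. Klf4 footprints with N1-AcSpd ranged from -3.14 to 0.01. Klf4 efficiency ranged from -1.7 to 0.91, -12.33 to 0.41, -2.04 to 0.23 and -12.88 to 0.60 in the 4 comparisons, where the extreme values leave only the treated HFSC library with 0 footprints and are no fold change, and Ovol1 efficiency from -0.25 to 1.41 (treated cell types) and -0.31 to 0.41 (N1-AcSpd in progenitors). Where not stated, the cause of these changes was not tested. Depth limited the Ribo-seq values, where 3 counts correspond to 12.5 to 73.5 CPM.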
